A study of Mus musculus with 8 samples.

Results

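This account describes 41 genes of the lysosome, of its proton pump (the vacuolar ATPase, or V-ATPase) and of autophagy in mouse liver, taken by name from a table of 23006 genes. They fall into 15 genes of the V-ATPase (5 of its membrane sector V0, 8 of its cytosolic sector V1 and 2 accessory proteins), 4 proteins of the lysosomal membrane and of cholesterol export, 6 cathepsins, 3 other genes of lysosomal breakdown (Hexa, Psap and Grn), the transcription factor Tfeb, and 12 genes of autophagy. All 41 were in the table and all 41 passed the filter on low counts, which left 16876 genes to test.

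RNA was sequenced from liver tissue of wild-type mice in 4 groups with 2 libraries each. SLIT2+APAP mice received the guidance protein SLIT2 (2 µg for each mouse, injected intraperitoneally during 3 days) and acetaminophen (APAP) at 400 mg/kg, a dose used to injure the liver. APAP mice received acetaminophen with saline (PBS), SLIT2 mice received SLIT2 alone, and control mice received PBS. Livers were taken 24 h after acetaminophen, and the labels do not give the day of SLIT2 relative to it. The sources used here give no strain, sex or age. They do not state that each library is a mouse of its own, and the spread behind every p-value may thus be technical. APAP libraries are numbered 3 and 4, and those of the other groups 1 and 2.

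Lysosomes digest what cells take up and what autophagy delivers to them. The V-ATPase acidifies the lysosome, and cathepsins and other hydrolases work in that acid. In macroautophagy a membrane carrying ATG8 proteins (the LC3 and GABARAP families) closes around cargo held by receptors such as p62, and fuses with the lysosome. TFEB, a transcription factor held in the cytosol by the mTORC1 kinase, switches on many of these genes by binding a palindromic DNA motif (the CLEAR motif). In the liver, autophagy is known for the removal of damaged mitochondria and of acetaminophen-protein adducts.

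The proteolipid gene Atp6v0c has a near-identical processed copy without introns, Atp6v0c-ps2, and the bases around their difference are shown because reads from either gene can look alike. Atp6v0c lies at chr17:24163866-24169702 on the minus strand and the copy at chr6:37806086-37806550 on the plus strand (GRCm38, GENCODE M21). Over the 465 coding bases, 464 were identical (99.8%). The single substitution was T111C, counted from the first base of the start codon with the base of Atp6v0c first, and the longest stretch without a difference was 354 bases. Coding bases 71 to 150 follow from the GENCODE transcripts, with the differing base in capitals.
Atp6v0c: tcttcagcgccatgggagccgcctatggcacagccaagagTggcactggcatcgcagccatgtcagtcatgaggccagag
Atp6v0c-ps2: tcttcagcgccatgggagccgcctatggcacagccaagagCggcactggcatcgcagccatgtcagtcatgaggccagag

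Promoters of 33 of the 41 genes (39 promoters, from 250 bases before to 50 after each listed start) were available from RefSeq on GRCm38.p6. They were searched for the CLEAR motif and the shorter sites nested in it. All 3 motifs are palindromes and so read the same on both strands. The full motif, TCACGTGA with a G before it and a C after it, was found in 0 of the 33 genes, against 0.683% of the 12148 tested genes with a promoter available. TCACGTGA was in 5 of the 33 genes (15.2%), namely Atp6v0d1, Atp6v0e, Atp6v1a, Ctsa and Ctsd, against 1.90% of those 12148. Its core CACGTG was in 11 genes (33.3%), against 10.8% of those 12148. A match is a run of letters and not a measured binding site. The stretches around TCACGTGA are shown for a V1 gene and a pair of cathepsins, and the 75 bases before the start of Lamp1 for their 4 copies of CACGTG, with the motifs in capitals. They lie at chr16:44139358-44139417 (minus strand, the motif starting 132 bases before the listed start of Atp6v1a), chr2:164833734-164833772 (plus strand, 13 bases before a listed start inside Ctsa), chr7:142387893-142387952 (minus strand, 99 bases before the listed start of Ctsd) and chr8:13159086-13159160 (plus strand, Lamp1). The Ctsa stretch belongs to the promoter at chr2:164833523-164833822. The promoter at the start of the Ctsa gene, chr2:164832622-164832921, held none of the motifs.
Atp6v1a: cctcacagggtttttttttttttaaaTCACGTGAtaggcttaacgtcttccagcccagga
Ctsa: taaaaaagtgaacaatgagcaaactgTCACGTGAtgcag
Ctsd: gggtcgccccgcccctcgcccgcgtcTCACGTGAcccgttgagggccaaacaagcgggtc
Lamp1: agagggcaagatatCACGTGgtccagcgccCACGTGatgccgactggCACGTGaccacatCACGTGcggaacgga

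The libraries held 60.8 to 101 M counts (M, 1000000), and the SLIT2 libraries stood apart. Genes encoded on the mitochondrial genome took 25.1% and 30.3% of counts in SLIT2+APAP, 14.9% and 13.4% in APAP, 60.2% and 69.0% in SLIT2, and 16.0% and 17.3% in control. Without those genes, the SLIT2 libraries held 25.1 and 18.9 M counts, and the others 55.2 to 85.8 M. The labelled tissue was checked on 11 hepatocyte markers such as Alb and Apob, none at 0 in any library. Their summed level in counts per 1000000 counts (CPM, on library sizes scaled by edgeR's TMM method) was 78600 and 74000 in SLIT2+APAP, 122000 and 104000 in APAP, 16300 and 9200 in SLIT2, and 65700 and 84500 in control. The SLIT2 libraries were thus the lowest and the APAP libraries the highest. All levels below are CPM on that scale unless a length is named, and a gene was called where edgeR's quasi-likelihood test gave a Benjamini-Hochberg adjusted p under 0.05 over all 16876 genes.

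The summed level of the 41 genes differed between the groups. It was 3752 and 3373 CPM in SLIT2+APAP, 7787 and 5199 in APAP, 1415 and 1118 in SLIT2, and 4855 and 4768 in control. As a share of counts that were not mitochondrially encoded, they took 0.543% and 0.565% in SLIT2+APAP, 0.859% and 0.624% in APAP, 0.382% and 0.328% in SLIT2, and 0.508% and 0.545% in control. On both measures the APAP libraries were the highest and the SLIT2 libraries the lowest, and on the share SLIT2+APAP overlapped control. The 6 cathepsins summed to 930.3 and 863.3 CPM in SLIT2+APAP, 2580 and 1381 in APAP, 268.7 and 218.9 in SLIT2, and 1096 and 1178 in control, in the same order as the CPM of the whole set.

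**Figure D1:**
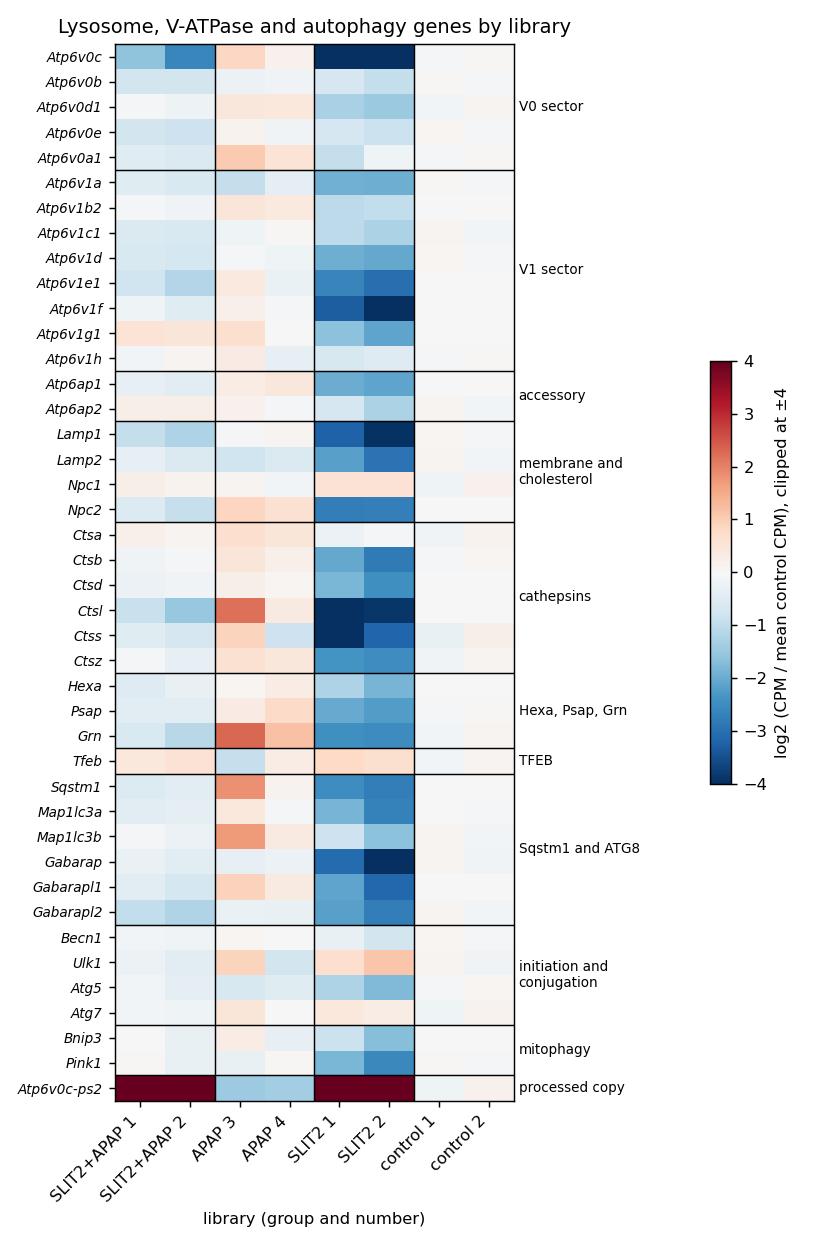
Level of each of the 41 genes and of the copy Atp6v0c-ps2 in the 8 libraries, as log2 of its CPM relative to the mean of the 2 control libraries, with colours clipped at 4 on either side. Rows are genes ordered by role and columns are libraries. Most rows are darkest on the low side in the SLIT2 columns, Ctsl, Grn and Sqstm1 are highest in APAP 3, and the copy runs opposite to Atp6v0c.

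Per kilobase of annotated exon, the order of the genes differed between groups. In control, Gabarap led at 142 CPM per kilobase, with Lamp1 at 139, Ctsz at 108 and Sqstm1 at 92.7. In APAP, Sqstm1 led at 214, with Ctsz at 156 and Ctsl at 142. In SLIT2+APAP, Gabarap at 112 and Ctsz at 94.6 led, and in SLIT2 Bnip3 led at 39.8. Tfeb was among the lowest per length, at 1.85 CPM per kilobase in SLIT2+APAP, 1.15 in APAP, 2.17 in SLIT2 and 1.31 in control; it ranked 34 of 41 in SLIT2 and 41 in the other groups. The annotated exons are the union over all transcripts of a gene, which can be longer than the RNA a liver makes.

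Between livers given acetaminophen alone and control livers, the question is which of these genes respond to the injury. None of the 41 passed the test in either direction, against 0.332% of all tested genes higher and 0.456% lower (0.788% in either direction), and 13 had an unadjusted p under 0.05, as had 24.6% of all tested genes. The 41 log2 fold changes had a median of 0.18 (31 positive and 10 negative), against 0.05 over all tested genes. In 17 genes both APAP libraries lay above both control libraries and in 6 both lay below, against 26.9% and 26.1% of all tested genes.

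Grn, which encodes the secreted and lysosomal protein progranulin, came closest. Its level was 519 and 237 CPM in APAP, against 97.6 and 113 CPM in control (log2 fold change 1.84 ± 0.37 SE, adjusted p = 0.0627). Both APAP libraries lay above both control libraries, and APAP 3 was over 2-fold above APAP 4. Ctsl, a cysteine protease of the lysosome, had 1440 and 406 CPM in APAP, against 319 and 309 CPM in control (1.55 ± 0.52, adjusted p = 0.1296). The cargo receptor gene Sqstm1, which encodes p62, had 1100 and 342 CPM in APAP, against 315 and 307 CPM in control (1.21 ± 0.47, adjusted p = 0.1658). In both genes APAP 4 lay just above control and APAP 3 far above it. Map1lc3b, an ATG8 gene, had 213 and 85.3 CPM in APAP, against 70.8 and 60.9 CPM in control (1.18 ± 0.43, adjusted p = 0.1501).

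Other genes were closer between the APAP libraries. Npc2, which hands cholesterol to Npc1 in the lysosome, had 56.5 and 47.9 CPM in APAP, against 31.0 and 31.8 CPM in control (0.73 ± 0.21, adjusted p = 0.09832). Lamp2, a major glycoprotein of the lysosomal membrane, had 359 and 423 CPM in APAP, against 671 and 580 CPM in control. Atp6v1a, the catalytic subunit of V1, had 17.9 and 26.5 CPM in APAP, against 35.8 and 33.2 CPM in control (adjusted p = 0.148). The APAP libraries lay above control for Npc2, and below it for Lamp2 and Atp6v1a. The spread between APAP 3 and APAP 4 was over 2-fold in 7 of the 41 genes (Ctsl, Ctss, Sqstm1, Ulk1, Map1lc3b and Grn higher in APAP 3, and Tfeb lower), in 1 between the SLIT2 libraries, and in none between the control or between the SLIT2+APAP libraries. The median absolute log2 difference between APAP 3 and APAP 4 was 0.27 over the 41 genes, against 0.52 over all tested genes.

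The count of 0 depended on the APAP libraries. Without APAP 4, 9 of the 41 genes were called, 7 higher (Grn, Ctsl, Sqstm1, Map1lc3b, Npc2, Atp6v0a1 and Ulk1) and 2 lower (Tfeb and Atp6v1a), in a fit that called 28.7% of all genes and took the lone APAP 3 to vary like the other groups. Without APAP 3 Grn alone was called (3.10% of all genes), as it was on library totals and without a count filter, and DESeq2 called Grn and Ctsl (11.6% of all genes).

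SLIT2+APAP livers set against APAP livers ask what SLIT2 changes in livers given acetaminophen. Of the 41 genes, 10 fell and none rose, against 7.64% of all tested genes lower and 6.29% higher (13.9% in either direction). They were 5 V-ATPase genes (Atp6v0c, Atp6v0e, Atp6v0a1, Atp6v1e1 and Atp6ap1), Lamp1, Npc2, Ctsl, Psap and Grn. The median log2 fold change of the 41 was -0.55 (8 positive and 33 negative), against -0.06 over all tested genes. In 28 genes both SLIT2+APAP libraries lay below both APAP libraries, and in 4 both lay above, against 29.4% and 28.8% of all tested genes. In bulk liver RNA, fewer cells of a type and less RNA per cell cannot be told apart.

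**Figure D2:**
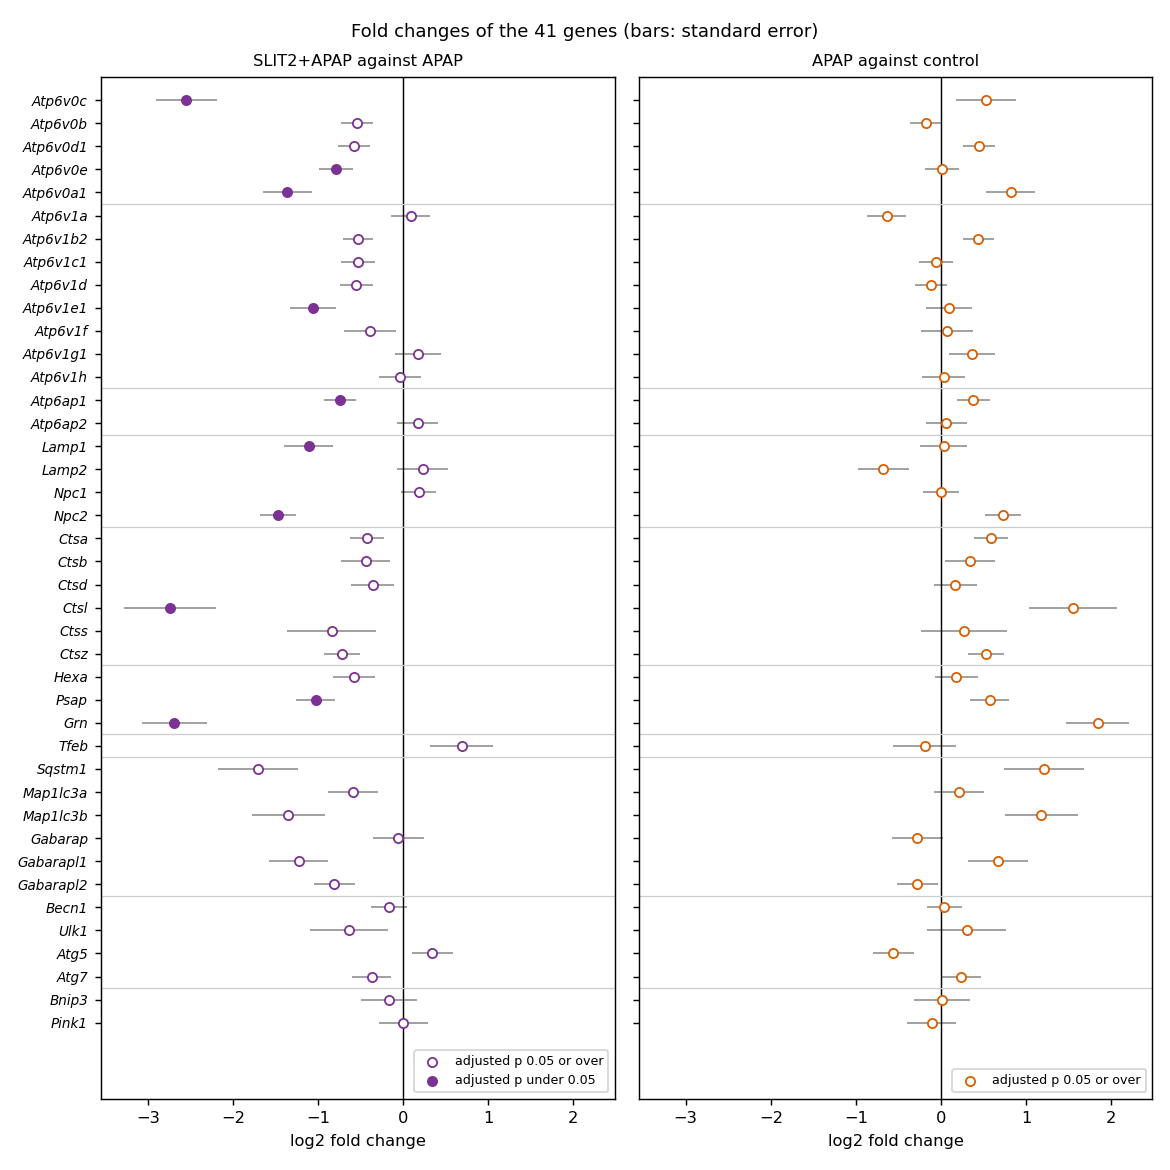
Log2 fold change of each of the 41 genes for SLIT2+APAP against APAP (left) and for APAP against control (right), with standard errors as bars. Filled points had an adjusted p under 0.05; there are 10 on the left, all below 0, and none on the right. Both panels share the APAP libraries, so opposite signs of a gene in them are not independent.

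In the V0 sector, which carries protons through the membrane, 3 of 5 genes were called lower. Atp6v0a1, an isoform of the subunit that forms the proton path with the proteolipid ring, had 13.9 and 12.9 CPM in SLIT2+APAP, against 40.2 and 28.3 CPM in APAP (-1.36 ± 0.29, adjusted p = 0.02507). Atp6v0e, a small membrane subunit, had 18.1 and 17.0 CPM in SLIT2+APAP, against 33.3 and 27.5 CPM in APAP (-0.79 ± 0.20, adjusted p = 0.04003). In both genes the groups did not overlap. Atp6v0b, a proteolipid of the same ring as Atp6v0c, had 47.1 and 46.9 CPM in SLIT2+APAP, against 66.3 and 70.8 CPM in APAP, and Atp6v0d1, which couples the ring to the central stalk, had 45.6 and 42.2 CPM in SLIT2+APAP, against 66.6 and 64.9 CPM in APAP. Both were lower in both SLIT2+APAP libraries without passing the test (adjusted p = 0.09719 and 0.0806).

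Atp6v0c itself was counted at 54.0 and 27.3 CPM in SLIT2+APAP, against 291 and 186 CPM in APAP (-2.55 ± 0.36, adjusted p = 0.008586). Its copy Atp6v0c-ps2 was counted at 84.0 and 115 CPM in SLIT2+APAP, against 0.274 and 0.282 CPM in APAP (8.47 ± 0.39, adjusted p = 0.000407). The pair moved in opposite directions in both libraries. Of the counts of the pair, the copy took 60.9% (95% interval 59.9 to 61.8) and 80.8% (80.1 to 81.5) in SLIT2+APAP, 0.0942% (0.059 to 0.143) and 0.152% (0.102 to 0.218) in APAP, 82.2% (80.8 to 83.5) and 75% (72.9 to 77) in SLIT2, and 0.406% (0.306 to 0.529) and 0.487% (0.386 to 0.607) in control. The share was above 60% in all 4 libraries given SLIT2 and below 0.5% in the other 4; the exact binomial intervals cover counting error only.

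Counted as one gene, the pair had 138 and 142 CPM in SLIT2+APAP, 291 and 186 CPM in APAP, 45.8 and 31.7 CPM in SLIT2, and 161 and 171 CPM in control. On that sum the difference between SLIT2+APAP and APAP was -0.77 and did not pass the test (adjusted p = 0.1032), which leaves 9 of the 41 genes lower and 4 of 14 V-ATPase genes without Atp6v0c. Whether the copy's reads came from Atp6v0c was not tested, since the deposited table holds no reads. The copy was not alone in its direction. Of the 585 processed pseudogenes tested, the copy included, 83 were higher and 20 lower in SLIT2+APAP than in APAP (14.2% higher, against 6.29% of all tested genes). The median log2 fold change of the 585 was 1.03. Between SLIT2 and control, 275 of the same 585 were higher and 75 lower (47.0% higher, against 27.3% of all tested genes). Their median was 1.89, against 0.00 over all tested genes.

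**Figure D3:**
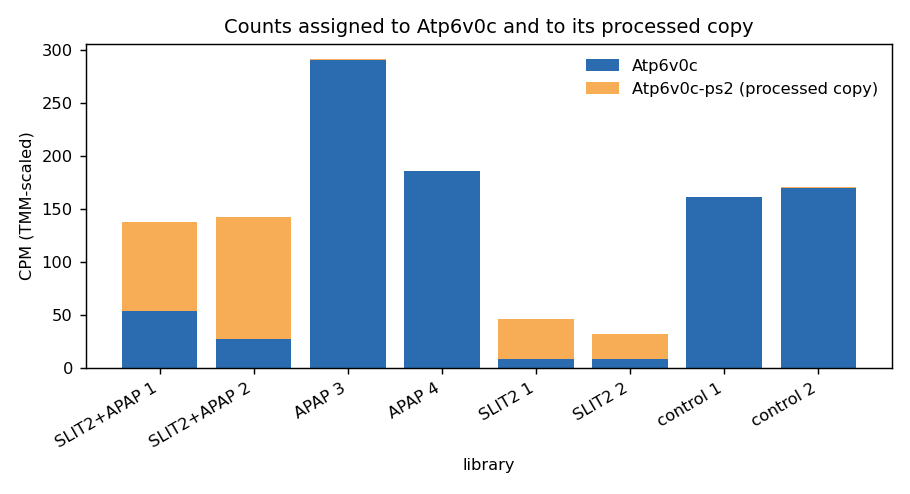
Levels of Atp6v0c and of its processed copy Atp6v0c-ps2 in each of the 8 libraries, in CPM, with 1 stacked bar per library. In the 4 libraries given SLIT2 the copy makes up over 60% of the bar, and in the APAP and control libraries under 0.5%.

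Of the 8 genes of the V1 sector, where ATP is broken down, 1 was called lower. Atp6v1e1, part of the outer stalks, had 39.9 and 31.3 CPM in SLIT2+APAP, against 91.2 and 57.6 CPM in APAP (-1.06 ± 0.27, adjusted p = 0.04003). Its groups did not overlap. Atp6v1b2, a nucleotide-binding subunit, Atp6v1c1, a stalk subunit that joins V1 to V0, and Atp6v1d, of the rotor, lay between -0.53 and -0.55 with adjusted p of 0.08775 to 0.1135. The catalytic subunit Atp6v1a had 24.6 and 22.8 CPM in SLIT2+APAP, against 17.9 and 26.5 CPM in APAP, and the outer-stalk subunit Atp6v1g1 had 102 and 98.7 CPM in SLIT2+APAP, against 110 and 68.7 CPM in APAP. In these, and in the regulatory subunit Atp6v1h, the groups overlapped. Atp6ap1, an accessory protein for assembly of the pump, had 28.5 and 26.3 CPM in SLIT2+APAP, against 43.1 and 48.6 CPM in APAP (-0.74 ± 0.19, adjusted p = 0.03703), while the other accessory gene, Atp6ap2, had 45.8 and 46.6 CPM in SLIT2+APAP, against 44.2 and 37.9 CPM in APAP.

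Among the membrane and cholesterol genes, the paired names parted. Lamp1, a glycoprotein that lines the lysosomal membrane, had 191 and 159 CPM in SLIT2+APAP, against 355 and 401 CPM in APAP (-1.11 ± 0.29, adjusted p = 0.04013). Lamp2, the related glycoprotein, had 497 and 417 CPM in SLIT2+APAP, against 359 and 423 CPM in APAP (0.23 ± 0.30, adjusted p = 0.6409). Lamp1 was lower in both libraries and the groups of Lamp2 overlapped. Npc2 had 21.4 and 16.4 CPM in SLIT2+APAP, against 56.5 and 47.9 CPM in APAP (-1.47 ± 0.21, adjusted p = 0.008793), and Npc1, the membrane transporter that receives cholesterol from it, had 70.4 and 66.9 CPM in SLIT2+APAP, against 64.8 and 56.1 CPM in APAP (0.18 ± 0.21, adjusted p = 0.5677). In SLIT2+APAP, Npc2 lay below both control libraries too (31.0 and 31.8 CPM), while Npc1 lay just above APAP. The difference between the members of each pair was not tested.

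Of the 6 cathepsins, Ctsl was called lower and all 6 had negative values. Ctsl had 168 and 109 CPM in SLIT2+APAP, against 1440 and 406 CPM in APAP (-2.74 ± 0.54, adjusted p = 0.01948), the most negative value of the 41 genes. Both SLIT2+APAP libraries were below control as well (319 and 309 CPM). Ctsz, a carboxypeptidase, had 148 and 125 CPM in SLIT2+APAP, against 236 and 213 CPM in APAP (-0.72 ± 0.21, adjusted p = 0.05839). Ctsb, another abundant cysteine protease, had 324 and 336 CPM in SLIT2+APAP, against 490 and 407 CPM in APAP, and the aspartic protease gene Ctsd had 183 and 195 CPM in SLIT2+APAP, against 256 and 229 CPM in APAP (adjusted p = 0.3209 and 0.3543). Both were lower without overlap, without passing the test. Ctss, the cathepsin of antigen-presenting cells, was low in all libraries, at 9.95 and 8.74 CPM in SLIT2+APAP, against 25.6 and 7.87 CPM in APAP.

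Grn had 68.3 and 49.1 CPM in SLIT2+APAP, against 519 and 237 CPM in APAP (-2.69 ± 0.38, adjusted p = 0.008385). Psap, the precursor of the saposins that help break down sphingolipids, had 177 and 177 CPM in SLIT2+APAP, against 308 and 417 CPM in APAP (-1.03 ± 0.23, adjusted p = 0.02789). For both genes the 2 SLIT2+APAP libraries also lay below both control libraries (97.6 and 113 CPM for Grn, 234 and 254 CPM for Psap). Hexa, a subunit of the enzyme that degrades GM2 ganglioside, had 17.4 and 20.3 CPM in SLIT2+APAP, against 26 and 30.5 CPM in APAP, and did not pass (adjusted p = 0.1448).

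**Figure D4:**
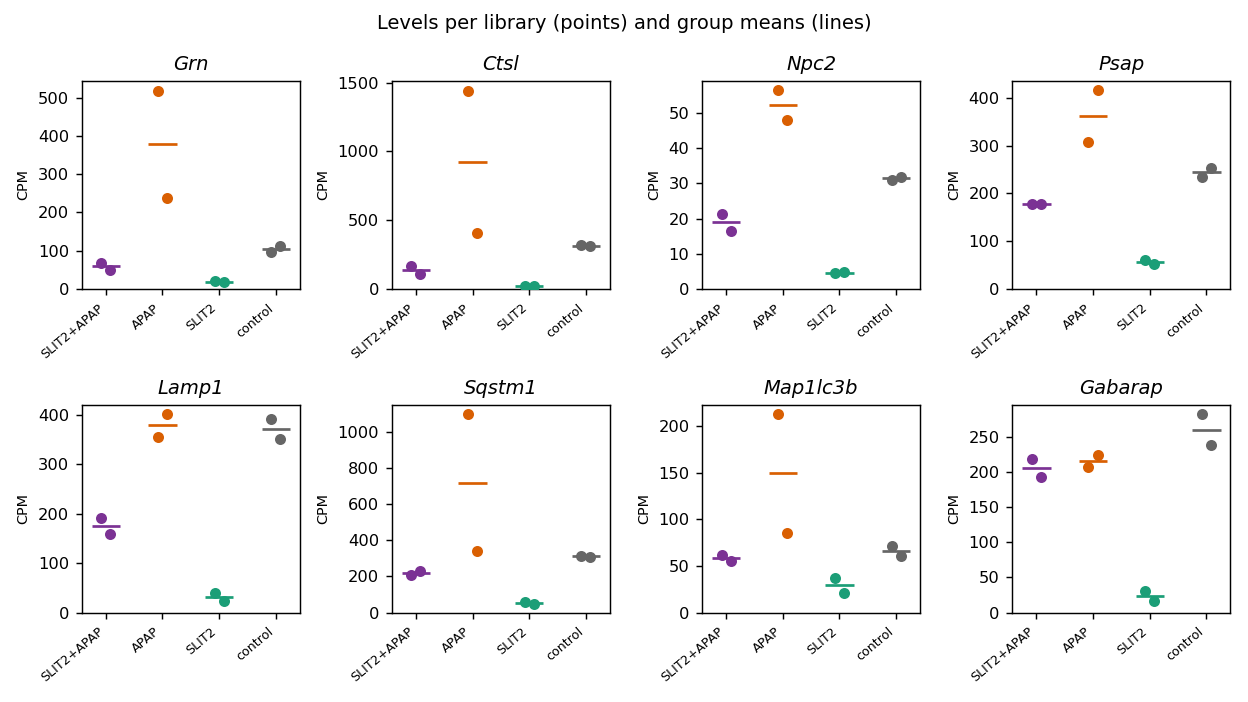
Levels in CPM, on linear axes from 0, of 8 of the genes in the 4 groups, with a point for each library and a line for the group mean. For Ctsl and Grn the APAP points are far apart and both lie above the other groups.

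None of the 12 autophagy genes passed edgeR's test (4 at an unadjusted p under 0.05, as had 33.1% of all tested genes). The 6 genes of the ATG8 proteins and their receptor came closest. DESeq2 called 4 of these lower (Sqstm1, Gabarapl1, Gabarapl2 and Map1lc3b), with 22.3% of all genes called, against 13.9% in the main fit. In edgeR, Sqstm1, Gabarapl1 and Gabarapl2 were called lower among genes with at least 10 CPM in 2 libraries (23.9% of all genes called). Sqstm1 was called with no count filter (8.8%), Gabarapl2 with offsets for GC content (11.2%) and Gabarapl1 without the SLIT2 libraries (10.5%). Sqstm1 had 211 and 229 CPM in SLIT2+APAP, against 1100 and 342 CPM in APAP (-1.71 ± 0.47, adjusted p = 0.05015). Gabarapl1 had 109 and 88.5 CPM in SLIT2+APAP, against 275 and 188 CPM in APAP (-1.23 ± 0.35, adjusted p = 0.05524), and Map1lc3b had 61.8 and 55.4 CPM in SLIT2+APAP, against 213 and 85.3 CPM in APAP (-1.35 ± 0.43, adjusted p = 0.07273). Each of these lay lower without overlap. Gabarapl2 gave -0.81 (adjusted p = 0.06237), Map1lc3a gave -0.59 (0.2015), and Gabarap, at 219 and 194 CPM in SLIT2+APAP, against 207 and 224 CPM in APAP, gave -0.06 (0.9081).

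The 4 genes that start autophagy and conjugate ATG8 to lipid had a median log2 fold change of -0.27, against -1.02 for the 6 genes of ATG8 proteins and p62. Becn1, part of the lipid kinase complex of early autophagy, had 44.2 and 43.8 CPM in SLIT2+APAP, against 50.3 and 48.6 CPM in APAP. Atg5, of the conjugation machinery, had 36.8 and 30.9 CPM in SLIT2+APAP, against 25.2 and 28.2 CPM in APAP (0.34 ± 0.24, adjusted p = 0.3479). Becn1 was slightly lower and Atg5 higher, both without overlap and without passing the test. The initiating kinase gene Ulk1 and the conjugating enzyme gene Atg7 gave -0.64 and -0.37, and the mitophagy genes Bnip3, a receptor on damaged mitochondria, and Pink1, a kinase that marks them, gave -0.17 and 0.00. Tfeb had 9.94 and 11.1 CPM in SLIT2+APAP, against 3.89 and 9.12 CPM in APAP (0.69 ± 0.37, adjusted p = 0.2322), the highest value of the 41 genes, and its level in APAP 3 was the lowest of all 8 libraries.

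Other genes of the same kinds were read against the 7.64% of all tested genes called lower. Of 43 other lysosomal genes, 7 were lower and none higher, with a median of -0.34. Ctsh, a further cysteine cathepsin, had 57.6 and 46.7 CPM in SLIT2+APAP, against 158 and 197 CPM in APAP (-1.77, adjusted p = 0.006794), and Gaa, the acid glucosidase that degrades lysosomal glycogen, had 26.1 and 24.9 CPM in SLIT2+APAP, against 66.1 and 67.3 CPM in APAP (-1.39, adjusted p = 0.00684). Both were lower in both libraries. Of 15 other V-ATPase genes tested, Atp6v0a2, an isoform of Atp6v0a1, was lower (-2.18, adjusted p = 0.01581), and none was higher, with a median of 0.07. Of 44 other autophagy genes, 4 were lower and none higher (median -0.35), among them Atg13, of the initiating kinase complex, at 14.0 and 16.1 CPM in SLIT2+APAP, against 45.8 and 37.1 CPM in APAP (-1.46, adjusted p = 0.009672). Of 27 tested regulators of TFEB and mTORC1, 3 were lower (Tfe3, a relative of Tfeb, Lamtor1, which anchors mTORC1 to the lysosome, and Mtor itself), and Deptor, an inhibitor of mTORC1, was higher (median 0.12). Tfe3 had 11.9 and 12.0 CPM in SLIT2+APAP, against 23.7 and 23.3 CPM in APAP (-0.98, adjusted p = 0.02603), and Deptor had 346 and 334 CPM in SLIT2+APAP, against 51.9 and 152 CPM in APAP (1.74, adjusted p = 0.04185). Between APAP and control edgeR called none in these 4 lists, with 10 of the lysosomal, 3 of the V-ATPase, 10 of the autophagy and 6 of the regulator genes at an unadjusted p under 0.05, a share near the 24.6% of all tested genes in each list.

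Markers of macrophages, which are rich in lysosomes, were read beside these genes. The summed level of 10 Kupffer cell markers was 138 and 121 CPM in SLIT2+APAP and 213 and 157 CPM in APAP, with 1 (C1qb) called lower and none higher. That of 12 markers of recruited macrophages was 54.8 and 61.6 CPM in SLIT2+APAP and 100 and 87.7 CPM in APAP, with Cd68, itself a lysosomal glycoprotein, lower and Trem2 higher. Both sums were lower in SLIT2+APAP, as was that of the 11 hepatocyte markers, of which 3 were called lower. The 11 neutrophil markers summed to 8.22 and 9.84 CPM in SLIT2+APAP and 23.8 and 9.23 CPM in APAP. Of these, 8 passed the count filter and were tested, with 2 called higher and 1 lower. At least 1 library had 0 counts for 5 of the 11, Ly6g included. The part of these cells in the fall of the lysosomal genes was not tested.

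The 10 calls rest on few libraries. The calls over all genes moved with them: without SLIT2+APAP 2 none of the 41 passed (11 at an unadjusted p under 0.05) and 0.116% of all genes, without SLIT2+APAP 1 only Atp6v0c (0.978%), without control 1 or control 2 Atp6v0c, Npc2, Grn and Ctsl (5.4% and 5.44%), and without APAP 4 there were 20 lower and Tfeb higher (34% of all genes). On library totals in place of TMM 5 were lower (Atp6v0c, Atp6v0a1, Npc2, Grn and Ctsl, with 11.1% of all genes called), and a fit to the 4 libraries compared called none of the 41 (16 at an unadjusted p under 0.05), and 1 gene of all.

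SLIT2+APAP livers set against control livers ask how far the livers given both differ from uninjured ones. One of the 41 genes was called lower and none higher, against 1.45% lower and 0.717% higher of all tested genes (2.16% in either direction), with 11 at an unadjusted p under 0.05, as had 20.4% of all tested genes. That gene was Atp6v0c, at 54.0 and 27.3 CPM in SLIT2+APAP, against 161 and 170 CPM in control (-2.02 ± 0.36, adjusted p = 0.03816). Summed with its copy it gave -0.24 (adjusted p = 0.6794), and none of the 41 was then called (10 at an unadjusted p under 0.05). The median log2 fold change was -0.37 (5 positive and 36 negative), against 0.04 over all tested genes. Both SLIT2+APAP libraries lay below both control libraries in 29 genes and above in 3, against 32.3% and 35.2% of all tested genes.

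The most negative after Atp6v0c were Ctsl (-1.18, adjusted p = 0.2484), Gabarapl2 (-1.09, adjusted p = 0.06192) and Lamp1 (-1.08, adjusted p = 0.0871). Gabarapl2, an ATG8 gene, had 30.8 and 26.2 CPM in SLIT2+APAP, against 65.5 and 55.9 CPM in control, and Lamp1 had 191 and 159 CPM in SLIT2+APAP, against 392 and 350 CPM in control. Neither overlapped. At the other end, Atp6v1g1 had 102 and 98.7 CPM in SLIT2+APAP, against 68.6 and 70.9 CPM in control (0.52, adjusted p = 0.3282). The count depended on which libraries set the spread. The calls over all genes rose with it. Without APAP 3, or without APAP 4, 12 of the 41 were lower (14.3% and 13.6% of all genes called), with DESeq2 8 (9.71%), and in a fit to the 4 libraries compared 16 were lower and 2 higher (Tfeb and Atp6v1g1; 27.4%), while without the SLIT2 libraries, or without any 1 of the control, SLIT2 or SLIT2+APAP libraries, none was called.

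**Figure D5:**
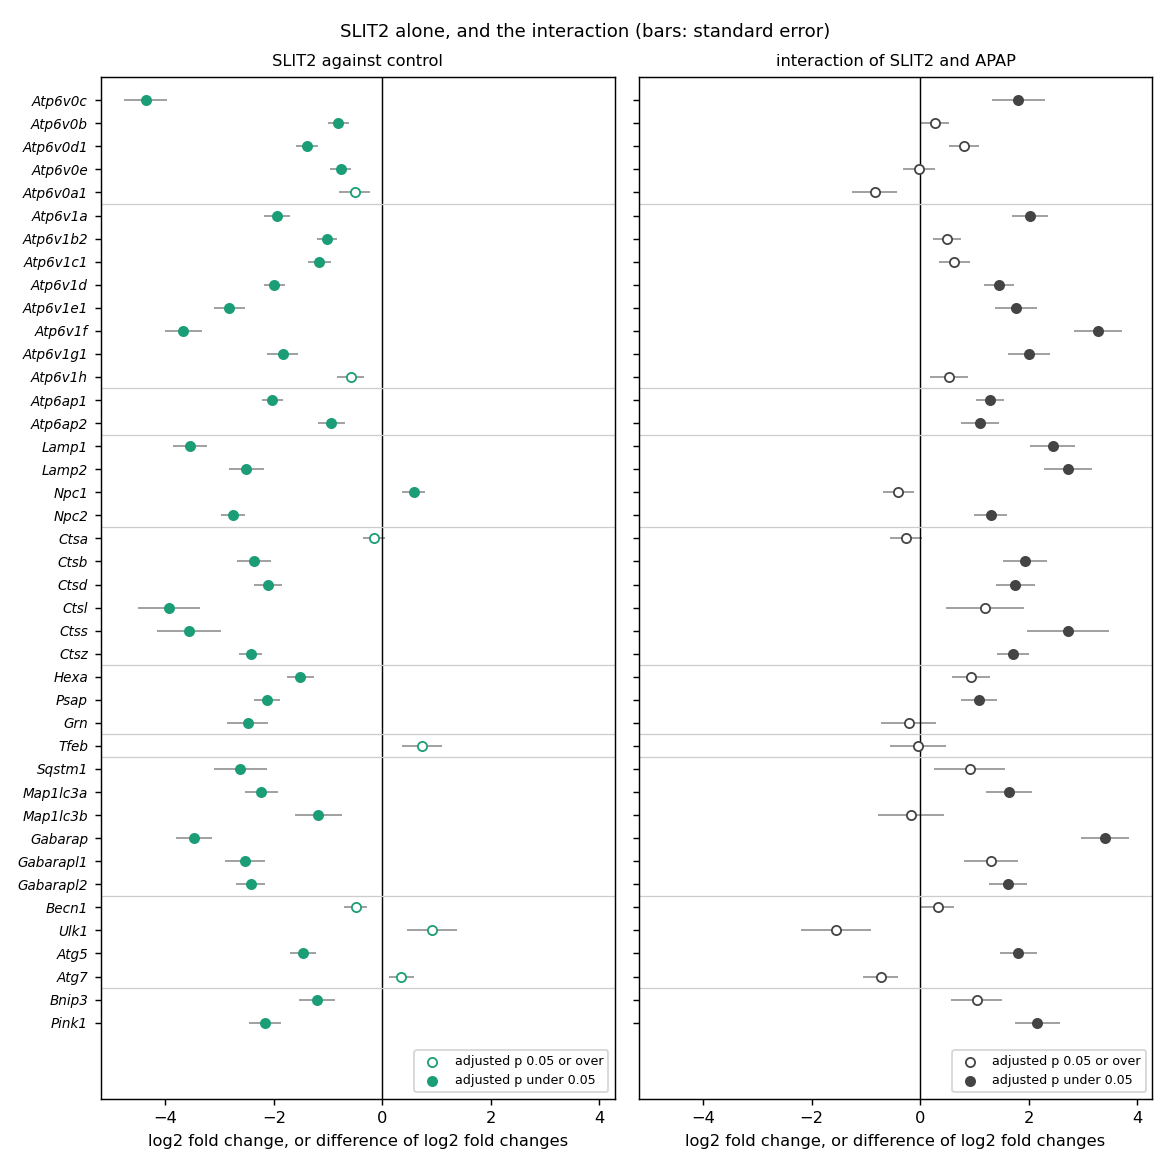
Log2 fold change of each of the 41 genes for SLIT2 against control (left), and the interaction, which is the log2 difference of SLIT2+APAP and APAP minus that of SLIT2 and control (right), with standard errors as bars. Filled points had an adjusted p under 0.05; on the left 33 lie below 0 and Npc1 lies above it, and on the right 21 lie above 0.

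SLIT2 livers set against control livers ask what SLIT2 does without injury. Of the 41 genes, 33 were lower and 1 (Npc1) higher, against 27.6% and 27.3% of all tested genes (54.9% in either direction). The median log2 fold change was -1.99 (37 negative), against 0.00 over all tested genes. Both SLIT2 libraries lay below both control libraries in 36 genes and above in 4, against 41.4% and 41.2% of all tested genes. These are the libraries with 60.2% and 69.0% mitochondrially encoded counts, and 10 of the 11 hepatocyte markers and 8 of the 10 Kupffer cell markers were called lower in them too. The 12 markers of recruited macrophages held 4 higher and 3 lower. The 11 neutrophil markers summed to 37.8 and 33.8 CPM in SLIT2, against 3.65 and 4.74 CPM in control. Of the 8 neutrophil markers tested, 3 were called higher and none lower. The part of these differences in the lower levels of the 41 genes was not tested.

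By role, 4 of 5 V0 genes, 7 of 8 V1 genes and both accessory genes were lower. Atp6v1f, of the V1 rotor, had 5.94 and 3.10 CPM in SLIT2, against 58.1 and 57.4 CPM in control (-3.67, adjusted p = 0.00014). Atp6v0c had 8.14 and 7.91 CPM in SLIT2, against 161 and 170 CPM in control (-4.36), and the sum with its copy was lower as well (-2.10, adjusted p = 0.00068). Atp6v0a1, at 10.1 and 17.1 CPM in SLIT2, against 18.6 and 20.1 CPM in control, and Atp6v1h, at 31.6 and 33.8 CPM in SLIT2, against 47.6 and 50.1 CPM in control, lay lower without passing (adjusted p = 0.1693 and 0.07912).

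Of the lysosomal genes, 5 of 6 cathepsins, all 3 of Hexa, Psap and Grn, and 3 of 4 membrane and cholesterol genes were lower. Ctsl had 19.7 and 21.3 CPM in SLIT2, against 319 and 309 CPM in control (-3.94), and Lamp1 had 39.7 and 23.7 CPM in SLIT2, against 392 and 350 CPM in control (-3.55). In both genes the SLIT2 libraries lay far below control. The 2 cholesterol genes parted again, with Npc2 at 4.57 and 4.67 CPM in SLIT2, against 31.0 and 31.8 CPM in control (-2.76, adjusted p = 0.000103), and Npc1 at 89.8 and 90.4 CPM in SLIT2, against 53.1 and 67.6 CPM in control (0.58 ± 0.21, adjusted p = 0.04317). The call of Npc1 was lost in 9 of 21 alternatives, among them the fit without the mitochondrially encoded genes and those without 1 of the control, SLIT2 or SLIT2+APAP libraries. Ctsa, a carboxypeptidase that protects other lysosomal enzymes, had 71.0 and 78.9 CPM in SLIT2, against 76.0 and 91.5 CPM in control, and was the cathepsin whose groups overlapped.

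All 6 genes of the ATG8 proteins and p62 were lower, with Gabarap at 30.7 and 16.3 CPM in SLIT2, against 283 and 239 CPM in control (-3.47), and Map1lc3b, the least changed of the 6, at 36.9 and 21.2 CPM in SLIT2, against 70.8 and 60.9 CPM in control (-1.18, adjusted p = 0.04684). The call of Map1lc3b was lost in 10 of 21 alternatives, among them those on library totals and on protein-coding genes only. Bnip3, Pink1 and Atg5 were lower too. Ulk1, at 83.8 and 113 CPM in SLIT2, against 57.2 and 47.8 CPM in control (0.91, adjusted p = 0.1272), Atg7, at 32.7 and 30.1 CPM in SLIT2, against 21.9 and 27.3 CPM in control (0.35, adjusted p = 0.2252), and Tfeb, at 13 and 11.6 CPM in SLIT2, against 6.82 and 8.02 CPM in control (0.73, adjusted p = 0.1288), lay above control in both libraries without passing the test.

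The 8 genes not called lower (Atp6v0a1, Atp6v1h, Npc1, Ctsa, Tfeb, Becn1, Ulk1 and Atg7) had 4715 to 11317 annotated exon bases (median 6762), and the 33 called lower had 1063 to 9552 (median 2675). As a description, Spearman's rank correlation between exon bases and the SLIT2 against control log2 fold change was 0.42 over the 41 genes and 0.15 over 16554 tested genes with a length, all from the same 4 libraries.

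The interaction asks whether the difference made by SLIT2 was the same with and without acetaminophen, and compares SLIT2+APAP minus APAP with SLIT2 minus control. It was positive and called in 21 of the 41 genes and negative and called in none, against 15.5% and 13.3% of all tested genes (28.8% in either direction), with a median of 1.20, against -0.09 over all tested genes. For Gabarap, the log2 difference was -0.06 with acetaminophen and -3.47 without it (interaction 3.41), for Atp6v1f -0.39 and -3.67 (3.28), and for Lamp2 0.23 and -2.51 (2.73). In these genes the SLIT2+APAP level was thus close to the APAP level, while the SLIT2 level was far below control. Ctsl (-2.74 and -3.94) and Grn (-2.69 and -2.48), lower in both settings, were not among the 21. The count was 5 without SLIT2+APAP 1, 9 without control 1 and 12 without control 2 (5.54%, 8.08% and 9.63% of all genes called). Negative calls appeared among genes with at least 10 CPM in 2 libraries, where 16 were positive and 4 negative (Npc1, Atg7, Atp6v0a1 and Ulk1). In that setting 44.7% of all genes were called.

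Copies of the other genes were looked for as well. A search of the annotated transcripts at 95% identity over at least 80% of the coding bases found copies of 5 of the 41 genes (Atp6v0c, Atp6v1f, Atp6v1g1, Bnip3 and Gabarapl2), 10 copies in all. Of those, 3 were in the table, Atp6v0c-ps2, Gm13453 for Atp6v1g1 (at most 15 counts in a library) and Gm16439 for Bnip3 (at most 1). Whether reads of the 5 genes were lost to copies outside the table was not tested. On the opposite strand, Ctsb overlaps Fdft1 (at most 14337 counts, against at least 2762 for Ctsb) and Lamp1 overlaps Grtp1 (at most 2165, against at least 1308). Likewise, Ctsz overlaps Nelfcd (at most 2283, against at least 1553) and Map1lc3b overlaps Zcchc14 (at most 1528, against at least 1173). Further members, Ctsa among them, overlap opposite-strand genes whose largest count lay below the member's smallest. Since the strand setting of the counting is not given in the sources used here, the levels of all these genes carry that uncertainty, and most of all Ctsb, Lamp1, Ctsz and Map1lc3b. On its own strand, Ctss overlaps the processed pseudogene Hmgb1-ps5 (at most 41 counts, against at least 56 for Ctss).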

How the data were processed

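Counts per gene are those the authors deposited, in 1 table of 8 libraries. The submitters' processing notes name STAR 2.5.4, Cufflinks and Cuffdiff 2.2.1 and the mm10 build, and the counting step is not given in the sources used here. The highest values look rounded (72 of the 93 that reach 1000000 have 0 as their last digit). Ensembl IDs were matched to GENCODE M21 symbols (22329 of 23006, 97.1%). Genes passing edgeR's filterByExpr were fitted over all 8 libraries (edgeR 4.0.16, R 4.3.3, TMM, robust quasi-likelihood, 4 residual degrees of freedom), with contrasts between the 4 groups and Benjamini-Hochberg adjustment over 16876 genes. With 2 libraries against 2 an exact permutation test cannot give a two-sided p below 0.333, so none is printed. Copies were searched with blastn 2.17.0 and aligned with Biopython 1.88. Alternatives were DESeq2 1.42.0, other scalings, filters and sets of libraries. The pipeline was run on simulated counts with known changes for APAP against control and SLIT2+APAP against APAP only, and the outcome is not given here. The members and all gene lists were chosen with earlier results of these data known. Named genes are members, in the text by role, and genes of the fixed lists past the threshold.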

Additional observations from a re-analysis of the deposited data

Results flagged for a closer look

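The difference made by SLIT2 differed between livers with and without acetaminophen, by the interaction term of edgeR's fit, in 21 of the 41 genes and in the copy Atp6v0c-ps2. All were positive. In the V-ATPase the interaction on the log2 scale was 1.81 for Atp6v0c, 2.03 for Atp6v1a, 1.45 for Atp6v1d, 1.76 for Atp6v1e1, 3.28 for Atp6v1f, 2.01 for Atp6v1g1, 1.29 for Atp6ap1 and 1.11 for Atp6ap2. Atp6v0c with its copy as one gene gave 1.33 (adjusted p = 0.04037), and the copy alone gave 3.11. Among the lysosomal genes it was 2.44 for Lamp1, 2.73 for Lamp2, 1.30 for Npc2, 1.93 for Ctsb, 1.75 for Ctsd, 2.72 for Ctss, 1.71 for Ctsz and 1.08 for Psap. Among the autophagy genes it was 1.64 for Map1lc3a, 3.41 for Gabarap, 1.62 for Gabarapl2, 1.81 for Atg5 and 2.16 for Pink1. Each value includes the SLIT2 libraries, whose mitochondrially encoded share was 60.2% and 69.0%, and the part of that share in these differences was not tested.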

How the results depend on the processing

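No called value changed sign under any alternative. The share of all genes called also differed between settings, and it moved when a library was left out. Apart from those fits, it ran from 0.00645% to 23.9% for SLIT2+APAP against APAP (13.9% in the main fit). It ran from 40.4% to 68.1% for SLIT2 against control (54.9%), and from 18.9% to 44.7% for the interaction (28.8%). For SLIT2+APAP against control it ran from 0.0188% to 27.4% (2.16%). Of the 41 genes, the number called between APAP and control was 0, and 1 on library totals, 1 with no count filter and 2 with DESeq2 (0 to 9 leaving out each library in turn). For SLIT2+APAP against APAP it was 10, and 5 on library totals and 0 with only the libraries compared (0 to 21 leaving out each library), with 9 to 15 in the other planned settings apart from 8 without the SLIT2 libraries. For SLIT2+APAP against control it was 1, and 2 with at least 10 CPM, 8 with DESeq2, 18 with only the libraries compared, 0 without the SLIT2 libraries and 0 with Atp6v0c and its copy summed (0 to 12 leaving out each library). For SLIT2 against control it was 34 (28 to 38 leaving out each library), and for the interaction 21 (5 to 26). Library totals moved the median of all genes by over 0.1, to 0.16 for APAP against control, 0.12 for SLIT2+APAP against APAP, 0.34 for SLIT2+APAP against control and 0.11 for SLIT2 against control, with medians of the 41 genes of 0.31, -0.36, -0.07 and -1.87. Libraries that share a number showed correlations of their deviations over all genes of 0.07, -0.07 and -0.01. With 2 libraries a group, such correlations cannot decide whether libraries of the same number were paired. With the replicate block in the 6 libraries numbered 1 and 2, 12 genes were called for SLIT2+APAP against control, as without the block, and 38 for SLIT2 against control (37 without). APAP libraries carry other numbers, so no paired analysis was possible for their comparisons because the groups share no number. Depth limits few of these genes: the lowest, Ctss, had at least 56 counts in each library.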
